A study of Mus musculus with 16 samples.

Results

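The citric acid cycle with the entry of pyruvate into it is described here through 31 genes, out of 36950 in the deposited table, each followed across the annotated cell types, the cardiomyocyte subclusters and the disease stages. The members were taken by name, and all 31 were found in the table. They comprise the mitochondrial pyruvate carrier (Mpc1 and Mpc2), the pyruvate dehydrogenase complex (Pdha1, Pdhb, Dlat, Pdhx and Dld) with kinases and a phosphatase that act on it (Pdk1, Pdk2 and Pdp1), 16 enzymes or subunits of the cycle, the transaminases and the cytosolic malate dehydrogenase of the malate-aspartate shuttle (Got1, Got2 and Mdh1), and a pair of enzymes that link pyruvate with oxaloacetate or malate (Pcx and Me3). The cells were taken from left ventricles of male mice of a TAC model (transverse aortic constriction), a narrowing of the aorta that loads the ventricle with pressure. The 5 stages are named in weeks, with 2 mice in 0w, 2 mice in 2w, 7 mice in 5w, 3 mice in 8w and 2 mice in 11w. Strain and age are not given, nor do the labels say whether the 0w mice had surgery, so 0w is used only as the first stage. Of the 11492 cells, 5656 are cardiomyocytes (CM) in the authors' annotation. The other types are 1775 fibroblasts (FB), 1858 endothelial cells (EC), 1413 macrophages (MP), 606 T cells (T) and 181 cells named GN, which is not explained.

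The cycle burns acetyl-CoA to carbon dioxide in the mitochondrial matrix and passes the electrons to the respiratory chain, which makes most of the ATP of the beating heart. Pyruvate, from glucose or lactate, enters the matrix through the Mpc1-Mpc2 carrier and is turned into acetyl-CoA by pyruvate dehydrogenase. Pyruvate dehydrogenase kinases switch that complex off and its phosphatases switch it on, and an adult heart takes most of its acetyl-CoA from fatty acids. All 31 genes are nuclear, although most of their proteins work inside mitochondria.

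Levels are given as UMIs (unique molecular identifiers, which count transcript molecules) of a gene per 1000000 UMIs of all genes outside the mitochondrial genome, abbreviated CPM. The mouse was the replicate: the UMIs of all cells of one type were summed per mouse, and sums of at least 10 cells were used. For CM this left 14 mice (5 of them of 5w), since 5w_2 and 5w_3 had no annotated CM, with between 926680 non-mitochondrial UMIs (5w_1) and 27690918 (2w_1). No cell name occurred in 2 mice. In 5w_1 and 8w_1, CM marker genes (7, Myh6 and Tnnt2 among them) summed to 9382 and 9481 CPM in CM, against at least 20593 CPM in the other mice, and fibroblast markers were highest there, at 5480 and 4543 CPM against at most 2492 CPM in the other mice. Both mice were on plate E, among the 12 plates that the cell names give the only one with mice of more than 1 stage, so that elsewhere plate and stage cannot be told apart. The non-mitochondrial total of CM also holds UMIs assigned to nuclear pseudogenes that carry copies of mitochondrial sequence. These took 20.3% and 19.8% of it in the 0w mice, 12.2% and 8.34% in the 2w mice and 5.87% to 32.1% in the 5w mice. They took 10.9%, 23.4% and 26.9% in the 8w mice and 49.7% and 34.4% in the 11w mice, and every CPM value is relative to a total that includes them.

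In cardiomyocytes the genes of the cycle were at similar levels at 0w and 2w and lay lower at the later stages. Their summed level was 12281 and 13762 CPM in the 0w mice and 13281 and 14931 CPM in the 2w mice. At 5w it was 4691 CPM in 5w_1 and 10160, 8471, 10968 and 7758 CPM in 5w_4 to 5w_7. The 8w mice had 5601, 10868 and 7642 CPM, and the 11w mice 4665 and 5199 CPM. Every mouse of 5w, 8w and 11w lay below every mouse of 0w and 2w, and the 11w pair was lowest together with 5w_1. Within plate E the sum was 5601 CPM in the 8w mouse and 4691 CPM in the 5w mouse, 1 mouse each. With the nuclear copies taken out of the total, the sums were 9273 and 7930 CPM in the 11w mice, against 15411 and 17154 CPM in the 0w mice, and the lowest were then 5w_1 with 4983 CPM and 8w_1 with 6287 CPM.

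The general CM markers lay lower in late mice along with the 31 genes. They summed to 35790 and 41418 CPM in the 0w mice, 51675 and 67569 CPM in the 2w mice and 30109 to 43942 CPM in 5w_4 to 5w_7. In the 8w mice they stood at 9481, 34525 and 22457 CPM and in the 11w mice at 20593 and 24932 CPM, so that every mouse of 8w and 11w was below every mouse of 0w and 2w. The share of all UMIs of CM that fell on the mitochondrial genome, which is read as a sign of RNA quality, was 63.8% and 62.1% in the 0w mice and 57.2% and 47.2% in the 2w mice. It was 44.0% in 5w_1, 67.6% to 85.7% in 5w_4 to 5w_7, 61.7%, 66.3% and 75.4% in the 8w mice and 88.2% and 85.4% in the 11w mice. The part of either in the lower levels of the 31 genes was not tested.

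**Figure D1:**
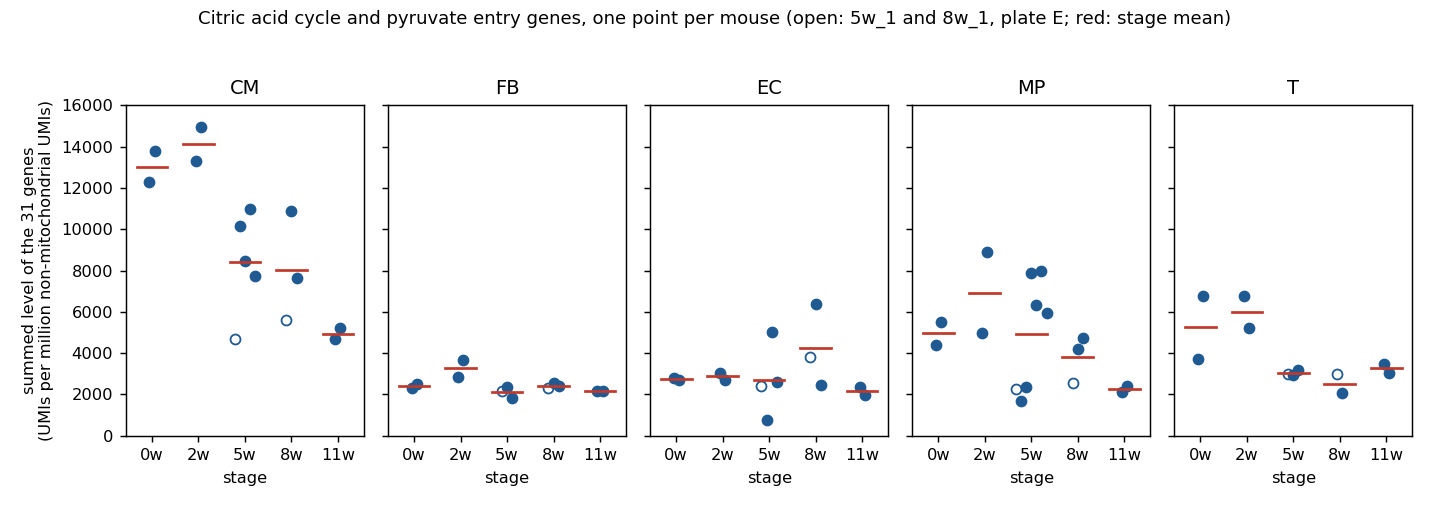
Summed level of the 31 genes per mouse (vertical axis, CPM) against stage, in each of 5 annotated cell types. Points are mice with at least 10 cells of the type, open points the mice of plate E (5w_1 and 8w_1), and red lines stage means; the CM panel shows 4 mice of 0w and 2w between 12281 and 14931, and 11w mice at 4665 and 5199.

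The stages were compared gene by gene with edgeR's quasi-likelihood test over all genes, with Benjamini-Hochberg adjustment over all genes tested and a threshold of 0.05. Over the CM of the 5 late mice (8w and 11w) against the 4 early mice (0w and 2w), all 31 genes had a fold change below 0 (30 of them with the TMM factors used further on), with a median log2 fold change of -1.04 (-0.60 with TMM factors) against -0.43 over all 15131 genes tested. The test called 0 of the 31 and 0 of all genes (0%), while 23 of the 31 and 2017 of all genes had an unadjusted p under 0.05. DESeq2 called 0 of the 31 and 175 of all genes. Without the mice of plate E, edgeR called 25 of the 31, all lower in the late mice, against 978 of 15401 genes (6.35%), with medians of -0.93 for the 31 genes and -0.56 for all genes. Those 25 were sensitive to the scaling: with TMM factors, which centre most genes on no change, and without plate E, 2 of the 31 (Got1 and Mdh2) were called lower against 89 of all genes (0.578%), with medians of -0.44 and -0.07, and Mpc1 and Pdk1 had fold changes above 0. With the nuclear copies taken out of the total and without plate E, it was 6 of the 31 (Got1, Mdh2, Sdhb, Cs, Sdha and Suclg1), all lower, against 95 of 15385 genes (0.617%), with medians of -0.56 and -0.19. The adjusted p values without plate E of single genes are those with the copies kept in the total. With all mice the smallest adjusted p of the 31 genes in this contrast was 0.0982. The count of 25 also fell to 4 without 8w_3, to 5 without 0w_2 or without 2w_2 and to 9 without 0w_1. The share of all genes called in these fits is not given, so the counts show only that the 25 depended on single mice. Levels of 17 of the 31 genes did not overlap between the late and the early mice, all lower in the late mice, against 5.23% of all genes tested; leaving 8w_1 aside it was again 17, against 9.64%.

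**Figure D2:**
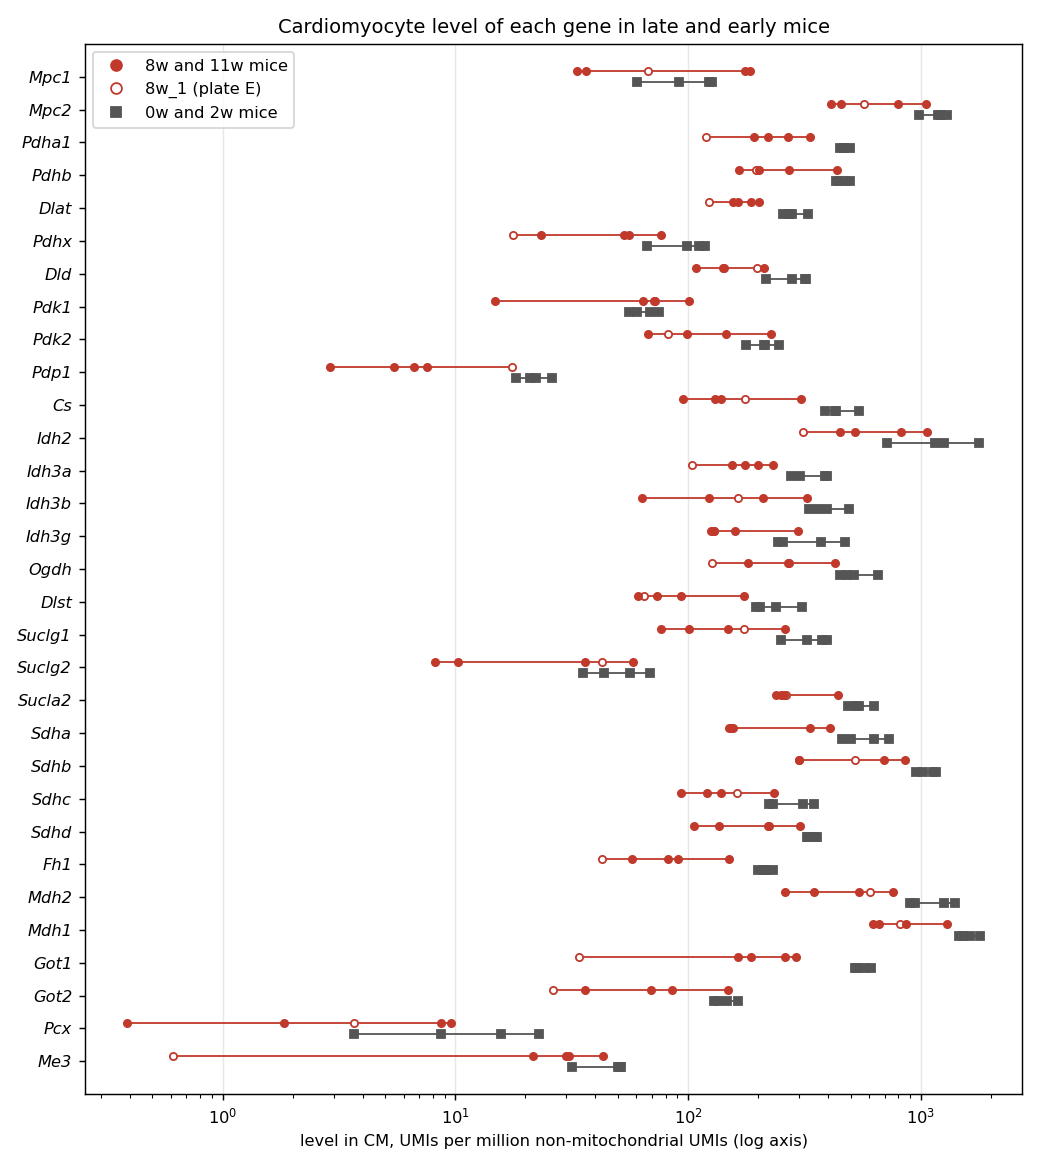
Level of each of the 31 genes in CM (horizontal log axis, CPM), with the 5 late mice in red above the 4 early mice in grey, lines from the lowest to the highest mouse and 8w_1 as an open point. For 17 genes, such as Got1, Mdh2 and Cs, the red points all lie left of the grey ones, while those of Pdk1 and Mpc1 overlap.

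The smallest adjusted p of the 31 genes once plate E was left out was that of Got1, the cytosolic aspartate transaminase of the malate-aspartate shuttle, which carries reducing equivalents of NADH into mitochondria. Got1 stood at 34.0, 289.6 and 260.6 CPM in the 8w mice and 163.6 and 187.1 CPM in the 11w mice, against 520.4 and 612.2 CPM in the 0w mice and 529.8 and 575.9 CPM in the 2w mice. The late mice all lay below the early ones, and 8w_1 was far below the other late mice. Its log2 fold change was -1.60 ± 0.51 (SE), adjusted p = 0.242 with all mice and -1.35 ± 0.17 (SE), adjusted p = 0.00243 without plate E. Mdh1, the cytosolic malate dehydrogenase of the shuttle, had 811.9, 1299 and 861.0 CPM in the 8w mice and 624.9 and 659.6 CPM in the 11w mice, against 1620.5 and 1791 CPM in the 0w mice and 1512 and 1465 CPM in the 2w mice. Here too the groups did not overlap, and the fold change was -0.998 ± 0.28 (SE), adjusted p = 0.21, or -0.94 ± 0.19 (SE), adjusted p = 0.0198 without plate E. Got2, the mitochondrial transaminase, had 26.3, 148.9 and 85.3 CPM in the 8w mice and 35.9 and 69.2 CPM in the 11w mice, against 128.6 and 134.7 CPM in the 0w mice and 147.6 and 163.2 CPM in the 2w mice. Got2 in 8w_2 lay within the early range, and it did not pass in either fit (-0.86 ± 0.25 (SE), adjusted p = 0.0519 without plate E).

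Both genes of the steps from fumarate to oxaloacetate had lower levels in late CM. Mdh2, the mitochondrial malate dehydrogenase that closes the cycle, had 603.7, 760.2 and 544.5 CPM in the 8w mice and 260.4 and 346.6 CPM in the 11w mice, against 898.7 and 946.6 CPM in the 0w mice and 1255 and 1396 CPM in the 2w mice. The groups did not overlap. Mdh2 came closest to the threshold of the 31 genes with all mice (-1.33 ± 0.25 (SE), adjusted p = 0.0982) and passed it without plate E (-1.31 ± 0.19 (SE), adjusted p = 0.00607) and also with TMM factors without plate E (-0.83 ± 0.16 (SE), adjusted p = 0.0481). Fh1, fumarase, had 42.6, 149.5 and 90.2 CPM in the 8w mice and 82.0 and 57.6 CPM in the 11w mice, against 212.6 and 215.8 CPM in the 0w mice and 199.99 and 230.9 CPM in the 2w mice, again without overlap, with a fold change of -1.23 ± 0.22 (SE), adjusted p = 0.012 without plate E. At 5w, Fh1 was at 282.7 CPM in 5w_1 and 109.5, 77.7, 109.8 and 103.6 CPM in 5w_4 to 5w_7. Unlike most of the 31 genes it was highest there in 5w_1.

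Succinate dehydrogenase is both an enzyme of the cycle and complex II of the respiratory chain: Sdha and Sdhb carry the flavin and the iron-sulphur clusters, and Sdhc and Sdhd anchor them in the membrane. Sdhb had 522.9, 852.4 and 691.9 CPM in the 8w mice and 298.6 and 299.5 CPM in the 11w mice, against 953.2 and 1024 CPM in the 0w mice and 1127 and 1164 CPM in the 2w mice. Late and early mice did not overlap, and the 11w mice were lowest. The fold change of Sdhb was -1.23 ± 0.27 (SE), adjusted p = 0.171, and -1.15 ± 0.16 (SE), adjusted p = 0.00515 without plate E. Sdha had 152.2, 405.3 and 333.3 CPM in the 8w mice and 156.5 and 150.3 CPM in the 11w mice, against 459.0 and 499.5 CPM in the 0w mice and 629.9 and 731.9 CPM in the 2w mice, with no overlap and a fold change of -1.26 ± 0.22 (SE), adjusted p = 0.0089 without plate E. Sdhd also did not overlap (106.2 to 301.0 CPM in late mice, against 323.8 to 358.4 CPM in early mice), whereas Sdhc did (93.4 to 234.5 CPM in late mice, against 223.6 to 348.5 CPM in early mice). Both passed without plate E, at -0.93 ± 0.19 (SE, adjusted p = 0.0196) for Sdhd and -0.96 ± 0.21 (SE, adjusted p = 0.0246) for Sdhc. Summed over the 4 subunits, the level averaged 2123 ± 104 CPM in the 0w mice and 2408 ± 111 CPM in the 2w mice (SD, n = 2 each). It averaged 1472 ± 467 CPM in the 5w mice (n = 5), 1413 ± 369 CPM in the 8w mice (n = 3) and 680.0 ± 2.12 CPM in the 11w mice (n = 2).

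The promoters of the 31 genes were searched for motifs of transcription factors known to act on genes of mitochondrial metabolism. Whether a motif goes with a change in level was not tested. The windows run from 250 bases before to 50 after the start of the gene (RefSeq, GRCm38.p6), and 28 of the 31 genes had an entry, with 37 windows. The motif of the estrogen-related receptors (TCAAGGTCA) was in 1 of the 37 windows, against 0.423% of all 32851. That of nuclear respiratory factor 1 (GCGCNTGCG) was in 8, from 7 genes, against 6.31% of all, and that of the ETS family with GABP (CCGGAAG) in 6, against 8.86%. Both strands were searched, and no match overlapped another in the windows shown. Printed here are the windows of Sdhd, which held all 3 motifs, of Idh3g, which held the last 2 named, and of Sdha, which held that of nuclear respiratory factor 1 more than once, with the matches in capitals. A match is a description of the letters and not a site of binding.
Sdhd promoter (chr9:50603800-50604099, minus strand): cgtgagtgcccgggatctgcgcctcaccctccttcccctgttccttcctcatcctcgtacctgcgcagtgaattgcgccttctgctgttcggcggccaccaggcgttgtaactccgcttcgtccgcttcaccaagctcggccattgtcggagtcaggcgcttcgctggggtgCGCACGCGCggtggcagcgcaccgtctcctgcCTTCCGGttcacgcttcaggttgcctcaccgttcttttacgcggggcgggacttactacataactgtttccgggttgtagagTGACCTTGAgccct
Sdha promoter (chr13:74350191-74350490, minus strand): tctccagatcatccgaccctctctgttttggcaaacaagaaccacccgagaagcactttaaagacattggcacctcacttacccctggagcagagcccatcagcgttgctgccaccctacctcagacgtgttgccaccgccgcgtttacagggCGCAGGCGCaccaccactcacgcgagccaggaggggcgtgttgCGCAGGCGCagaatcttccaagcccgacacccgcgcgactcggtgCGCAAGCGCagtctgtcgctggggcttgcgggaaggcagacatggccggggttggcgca
Idh3g promoter (chrX:73786848-73787147, minus strand): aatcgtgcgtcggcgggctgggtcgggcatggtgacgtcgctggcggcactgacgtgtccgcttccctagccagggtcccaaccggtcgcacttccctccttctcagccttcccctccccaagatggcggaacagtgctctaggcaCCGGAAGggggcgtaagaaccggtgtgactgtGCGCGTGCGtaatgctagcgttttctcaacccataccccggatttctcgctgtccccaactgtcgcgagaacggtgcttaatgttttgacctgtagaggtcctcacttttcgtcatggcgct

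Genes of the step that makes citrate, and of those that take it to succinyl-CoA and release carbon dioxide, also had lower levels in late CM. Cs, citrate synthase, which joins acetyl-CoA to oxaloacetate, had 176.3, 306.5 and 138.1 CPM in the 8w mice and 94.8 and 131.1 CPM in the 11w mice, against 389.1 and 427.8 CPM in the 0w mice and 431.0 and 540.0 CPM in the 2w mice. The late mice lay below all early ones. Its fold change was -1.54 ± 0.45 (SE), adjusted p = 0.214 with all mice and -1.49 ± 0.24 (SE), adjusted p = 0.00881 without plate E. Idh2, the NADP-dependent isocitrate dehydrogenase, varied more: it had 310.4, 1062 and 817.6 CPM in the 8w mice and 449.3 and 519.3 CPM in the 11w mice, against 712.5 and 1154 CPM in the 0w mice and 1259 and 1769 CPM in the 2w mice. The groups overlapped, because 0w_1, low among the early mice, lay below 8w_2 and 8w_3, and the fold change was -0.82 ± 0.21 (SE), adjusted p = 0.037 without plate E. Of the NAD-dependent isocitrate dehydrogenase, the rate-controlling step, the catalytic subunit Idh3a (103.8 to 232.0 CPM in late mice, against 276.7 to 395.8 CPM in early mice) and the subunit Idh3b (63.2 to 323.9 CPM, against 330.5 to 492.5 CPM) did not overlap, while Idh3g did (125.3 to 295.5 CPM, against 242.3 to 473.3 CPM). Without plate E all passed, the largest being Idh3b at -1.32 ± 0.25 (SE), adjusted p = 0.0145.

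The oxoglutarate dehydrogenase complex makes succinyl-CoA from oxoglutarate, with Ogdh as its first subunit, Dlst as its core and Dld, which it shares with pyruvate dehydrogenase. Ogdh had 127.0, 428.0 and 271.7 CPM in the 8w mice and 180.7 and 267.9 CPM in the 11w mice, against 448.1 and 480.5 CPM in the 0w mice and 514.0 and 655.5 CPM in the 2w mice. Dlst had 64.6, 174.3 and 92.9 CPM in the 8w mice and 73.4 and 61.1 CPM in the 11w mice, against 204.5 and 237.8 CPM in the 0w mice and 194.9 and 307.3 CPM in the 2w mice. Neither gene overlapped between late and early mice. Without plate E their fold changes were -0.89 ± 0.20 (SE), adjusted p = 0.0264, for Ogdh and -1.31 ± 0.24 (SE), adjusted p = 0.0124, for Dlst. With all mice neither passed (adjusted p = 0.3696 for Ogdh and 0.343 for Dlst).

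Succinyl-CoA ligase turns succinyl-CoA into succinate with an alpha subunit, Suclg1, and either the ADP-forming Sucla2 or the GTP-forming Suclg2 as its beta subunit. Suclg1 had 174.5, 261.4 and 148.4 CPM in the 8w mice and 76.5 and 101.3 CPM in the 11w mice, against 325.3 and 395.0 CPM in the 0w mice and 250.6 and 374.1 CPM in the 2w mice. It overlapped through 8w_2 and 2w_1 only. Suclg1 fell without plate E (-1.31 ± 0.23 (SE), adjusted p = 0.011, against 0.179 with all mice). Sucla2 did not overlap (237.9 to 439.0 CPM in late mice, against 486.3 to 626.4 CPM in early mice). It also fell without plate E (-0.90 ± 0.20, SE, adjusted p = 0.0253, against 0.329 with all mice). Suclg2 had 42.9, 57.8 and 36.2 CPM in the 8w mice and 8.20 and 10.3 CPM in the 11w mice, against 56.3 and 68.7 CPM in the 0w mice and 43.4 and 35.4 CPM in the 2w mice. Its 8w mice lay among the early ones, and the 11w pair stood apart, at 21 and 39 UMIs. In the contrast of 11w with 0w, Suclg2 had a fold change of -2.75 ± 0.43 (SE), adjusted p = 0.00853 without plate E, and -2.11 ± 0.40 (SE), adjusted p = 0.0405 with TMM factors as well. With all mice its adjusted p in that contrast was 0.266.

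For the entry of pyruvate, the carrier subunits differed in pattern. Mpc2 had 571.9, 1057 and 797.7 CPM in the 8w mice and 411.0 and 452.2 CPM in the 11w mice, against 1181 and 1297 CPM in the 0w mice and 1222 and 978.5 CPM in the 2w mice. Only 8w_2 reached the early range. Mpc1 had 67.0, 183.9 and 176.2 CPM in the 8w mice and 36.3 and 33.2 CPM in the 11w mice, against 122.7 and 126.8 CPM in the 0w mice and 91.1 and 60.4 CPM in the 2w mice, so that 8w_2 and 8w_3 were the highest of these mice and the 11w pair the lowest. Mpc1 at 5w was at 84.2 CPM in 5w_1 and 48.8, 46.2, 51.6 and 39.4 CPM in 5w_4 to 5w_7. Without plate E, Mpc1 was the 1 member called at 5w against 0w (-1.42 ± 0.25 (SE), adjusted p = 0.022), and at 11w against 0w it had -1.85 ± 0.31 (SE), adjusted p = 0.00854, while in the late against early contrast it did not pass (-0.30 ± 0.21 (SE), adjusted p = 0.388).

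Among the subunits of pyruvate dehydrogenase, Pdha1 of the first enzyme and Dlat, the core acetyltransferase, did not overlap. Pdha1 had 119.4, 334.9 and 191.9 CPM in the 8w mice and 220.9 and 268.5 CPM in the 11w mice, against 447.3 and 468.6 CPM in the 0w mice and 465.3 and 497.5 CPM in the 2w mice. Dlat had 122.8, 201.9 and 164.3 CPM in the 8w mice and 155.7 and 185.6 CPM in the 11w mice, against 278.9 and 327.3 CPM in the 0w mice and 255.5 and 272.0 CPM in the 2w mice. For both genes 8w_1 was the lowest of these mice. Fold changes without plate E were -0.89 ± 0.19 (SE), adjusted p = 0.0233, for Pdha1 and -0.68 ± 0.17 (SE), adjusted p = 0.0376, for Dlat. With all mice neither passed (adjusted p = 0.214 for Pdha1 and 0.507 for Dlat). Dld did not overlap either (108.5 to 212.2 CPM in late mice, against 215.1 to 320.7 CPM in early mice). Pdhb, the partner of Pdha1 (166.1 to 435.8 CPM, against 430.6 to 498.0 CPM), overlapped through 8w_2, as did Pdhx, which holds Dld in the complex (17.8 to 76.8 CPM, against 66.9 to 118.4 CPM). Pdhb and Dld passed without plate E and Pdhx did not (adjusted p = 0.0311, 0.0259 and 0.0770).

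The kinases and the phosphatase of the complex had fold changes of different size, which were not tested against each other. Pdk1 had 71.3, 72.4 and 101.3 CPM in the 8w mice and 14.8 and 63.7 CPM in the 11w mice, against 60.6 and 55.5 CPM in the 0w mice and 68.4 and 75.2 CPM in the 2w mice. Apart from 11w_1 its late mice were within or above the early range, and it had the smallest change of the 31 genes (-0.19 ± 0.59 (SE), adjusted p = 0.923). Pdk2 had 82.0, 226.0 and 144.9 CPM in the 8w mice and 67.5 and 99.0 CPM in the 11w mice, against 176.4 and 211.6 CPM in the 0w mice and 212.9 and 246.6 CPM in the 2w mice. Pdk2 fell without plate E (-0.76 ± 0.21 (SE), adjusted p = 0.0462, against 0.304 with all mice). Pdp1, the phosphatase, rested on few counts, 11 to 65 UMIs per late mouse, and had 17.4, 6.65 and 7.56 CPM in the 8w mice and 5.46 and 2.90 CPM in the 11w mice, against 18.3 and 25.9 CPM in the 0w mice and 20.9 and 22.2 CPM in the 2w mice. It did not overlap, and fell without plate E (-2.01 ± 0.54 (SE), adjusted p = 0.0443, against 0.2996 with all mice).

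Pcx, pyruvate carboxylase, which refills oxaloacetate, had 3.67, 9.61 and 8.64 CPM in the 8w mice and 0.39 and 1.84 CPM in the 11w mice, against 8.70 and 3.69 CPM in the 0w mice and 15.7 and 23.0 CPM in the 2w mice. It was at 1 UMI in 11w_1 and overlapped. Me3, a mitochondrial malic enzyme, had 0.612, 30.8 and 21.6 CPM in the 8w mice and 42.9 and 29.7 CPM in the 11w mice, against 31.8 and 51.4 CPM in the 0w mice and 49.8 and 50.8 CPM in the 2w mice. At 5w, Me3 was at 1.08 CPM in 5w_1 and 76.8, 63.5, 67.9 and 50.5 CPM in 5w_4 to 5w_7, so that 5w_1 and 8w_1 stood at 1 and 2 UMIs while 5w_4 to 5w_7 were about as high as the early mice or higher. Neither gene passed without plate E (adjusted p = 0.0684 for Pcx and 0.203 for Me3).

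Stage by stage, against 0w, the 31 genes had a median log2 fold change of 0.07 for 2w (0.19 over all genes) and -0.65 for 5w (0.04 over all genes). It was -0.75 for 8w (0.11 over all genes) and -1.46 for 11w (-0.77 over all genes), or -0.75 for 11w with TMM factors. The median for 8w was -0.50 without 8w_1 and -0.28 without plate E and 8w_3, and that for 5w was -0.40 without plate E and 0w_2. That for 2w was -0.02 without 2w_2. None was called in any of these contrasts with all mice, against 0% of all genes for 2w, 8w and 11w and 0.00661% for 5w. In stage order, 0, 5, 5 and 18 of the 31 had an unadjusted p under 0.05, against 382, 947, 698 and 2053 of all 15131 genes. For 8w and 11w against 5w the median was -0.56 (-0.39 over all genes), with 0 of the 31 and 0.033% of all genes called. In that contrast 3 of the 31 and 2456 of all 15131 genes had an unadjusted p under 0.05. Without plate E, 22 of the 31 were called lower at 11w against 0w and 1109 of 15401 genes in all (7.2%), and at 5w it was Mpc1 alone against 0.474% of all genes. With TMM factors as well, 3 of the 31 (Suclg2, Sdhb and Got1) were called at 11w against 0.591% of all genes, and Mpc1 at 5w against 0.48%. Without plate E and the nuclear copies, 11 of the 31 were called lower at 11w against 1.58% of all genes, and 2 at 5w against 0.617%. At 8w against 0w none was called in these fits. Leaving out 0w_2 as well as plate E brought the count at 11w to 0, and leaving out 0w_1 brought it to 7, both given without the share of all genes. Of the 31 genes, 29 were below every 0w and 2w mouse in both 11w mice, which 40.4% of all genes tested also were. The CM of 5w_4 to 5w_7 and of 11w came mainly from plates G, H and K, where the non-mitochondrial totals of the table were at a median of 0.545, 0.805 and 0.481 of the authors' own UMI number per cell, and on the other 9 plates they equalled it.

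**Figure D3:**
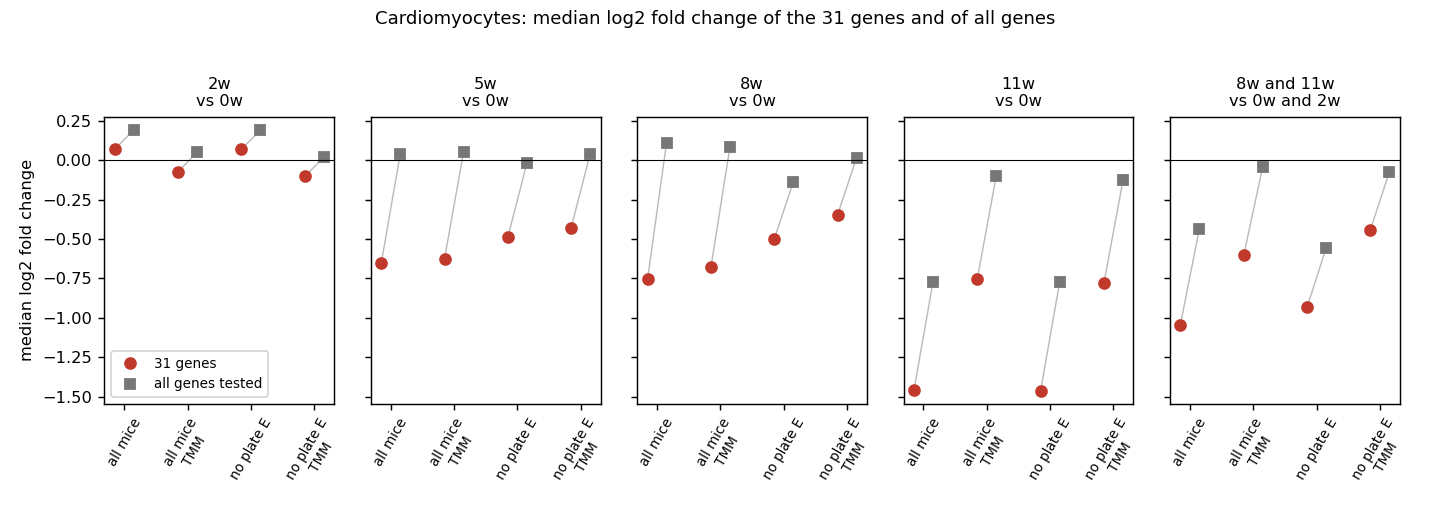
Median log2 fold change in CM of the 31 genes (red circles) and of all genes tested (grey squares) for 5 contrasts, with all mice or without plate E and with non-mitochondrial totals or TMM factors. The 31 genes lie below all genes in every panel, at -1.04 against -0.43 for late against early mice with all mice and at -0.44 against -0.07 without plate E with TMM factors.

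Other genes of the same chemistry were read from a second list of 27, of which 25 were in the table and 24 were tested. In the late against early contrast 20 of the 24 had a fold change below 0, with a median of -0.91 against -0.43 over all genes. An unadjusted p under 0.05 was found for 8 of the 24, against 2017 of all 15131 genes, and 0 were called (0% of all genes). Without plate E, 6 of 25 were called, all lower, against 25 of the 31 members and 6.35% of all genes. With TMM factors as well, edgeR called 0 of the 25, against 0.578% of all genes, and 7 had an unadjusted p under 0.05. Idh1, the cytosolic isocitrate dehydrogenase, had 11.0, 19.1 and 19.7 CPM in the 8w mice and 11.3 and 3.68 CPM in the 11w mice, against 54.2 and 67.0 CPM in the 0w mice and 30.0 and 47.9 CPM in the 2w mice, without overlap (-2.12 ± 0.51 (SE), adjusted p = 0.181). Pdk4, the kinase that a fasting or fat-burning heart raises, was at 27.2, 95.1 and 105.7 CPM in the 8w mice and 94.8 and 23.4 CPM in the 11w mice, against 984.8 and 938.0 CPM in the 0w mice and 403.4 and 252.7 CPM in the 2w mice. The 0w mice were highest by far and 5w_1 was at 0 UMIs. Its fold change was -3.07 ± 0.93 (SE), adjusted p = 0.226 with all mice and -2.87 ± 0.60 (SE), adjusted p = 0.0202 without plate E. With all mice, Pdk4 was below 0 in the other types too (-1.71 in FB, -3.16 in EC, -3.26 in MP and -7.28 in T), and was not called there. Ldhb, the lactate dehydrogenase subunit of the heart, fell without plate E too (-1.22 ± 0.19 (SE), adjusted p = 0.00771), as did Slc25a11, the oxoglutarate-malate carrier (-0.89 ± 0.22 (SE), adjusted p = 0.0362). Pdp2, the other phosphatase of the list, did not pass in either fit (-2.44 ± 0.92, SE, adjusted p = 0.286 with all mice).

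The authors' annotation divides CM into 11 subclusters. How they were built is not given in the sources used here, and these 31 genes may have been part of it, so their levels are given as a description with no test. Per mouse with at least 10 cells, the summed level was highest in CM2 (median 17395 CPM, 11062 to 20396 CPM in 8 mice) and lowest in CM11 (median 4924 CPM, 3408 to 13781 CPM in 5 mice) and CM5 (median 5283 CPM, 1420 to 7797 CPM in 6 mice). Of the 31 genes, 22 had their highest median in CM2 and 4 each in CM1 and CM3, while 21 had their lowest in CM5 and 8 in CM11. CM5 had the lowest CM marker sum (median 10738 CPM, against 73819.5 CPM in CM2), and CM11 and CM9 had the largest share of nuclear copies (medians 40.6% and 42.3%, against 10.6% in CM2). Idh2 ran from 119.9 CPM in CM5 to 1956 CPM in CM2 (medians), and Cs from 19.2 CPM to 594.0 CPM. CM2 and CM5 differed less in Mdh1, at 1865 and 725.5 CPM.

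Subclusters followed stages and plates: 92.8% of CM1 cells were on plate A (0w), 96.7% of CM3 cells on plate C (2w) and 64.2% of CM11 cells on plate K (11w). Some subclusters held mice of several stages. In CM4, with 12 mice, the summed level was 8305 and 9723 CPM in the 0w mice, 11325 and 13527 CPM in the 2w mice and 6028 to 8936 CPM in the 5w mice. It was 3696, 10267 and 5628 CPM in the 8w mice of CM4 and 2709 CPM in the 11w mouse. In CM9, where the copies took a large share at every stage, it was 9937 and 9053 CPM in 0w mice, 6352 to 8629 CPM in 5w mice, 8374 and 7521 CPM in 8w mice and 3181 CPM in an 11w mouse. In CM10 it was 12499 CPM in a 0w mouse, 20044 CPM in a 2w mouse, 10364 to 12356 CPM in 5w mice and 12216 and 9951 CPM in 8w mice. An 11w mouse was thus the lowest one within CM2, CM4, CM5, CM6, CM9 and CM11, and the 0w, 5w and 8w mice of CM10 lay between 9951 and 12499 CPM.

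**Figure D4:**
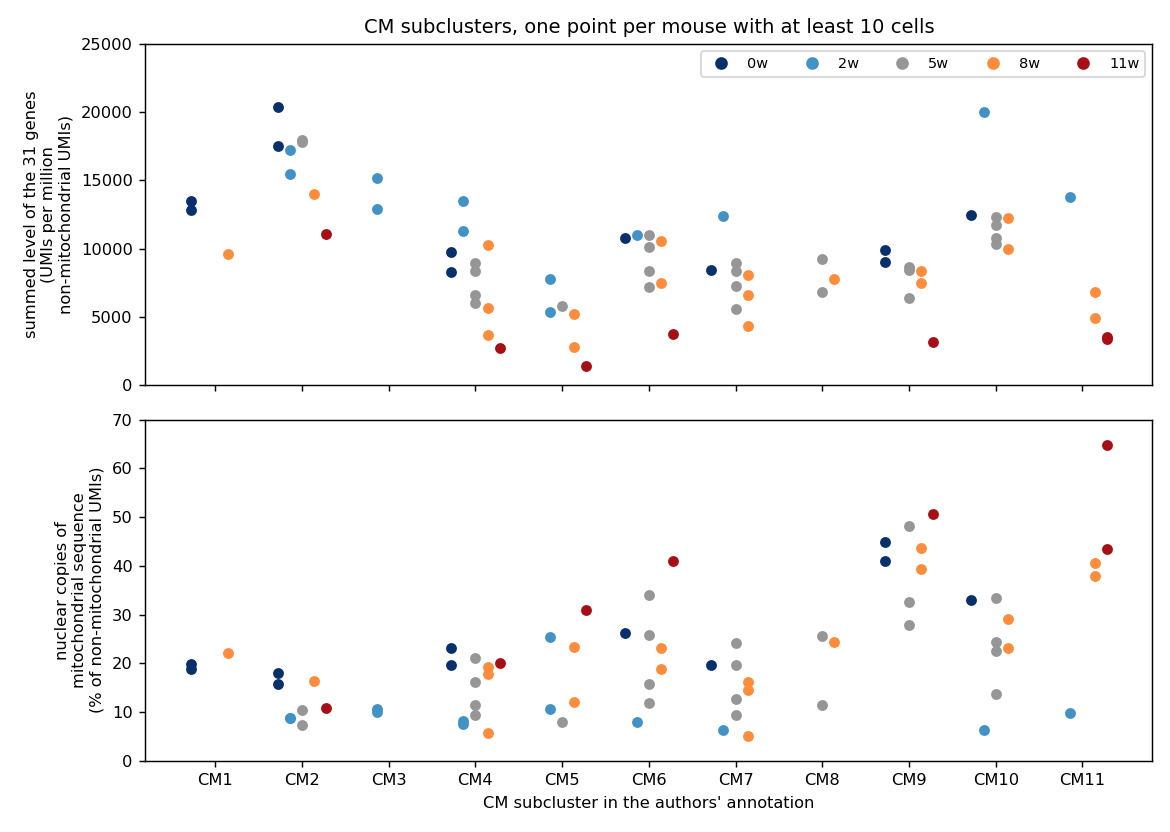
Upper panel: summed level of the 31 genes (CPM) in each CM subcluster, one point per mouse with at least 10 cells, coloured by stage. Lower panel: share of non-mitochondrial UMIs in nuclear copies of mitochondrial sequence for the same sums; CM2 reaches 20396 in the upper panel, and CM11 at 11w has 3550 and 3408 with 64.8% and 43.6% of copies.

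Across cell types, CM had the highest median of the 5 types for all 31 genes. The median summed level over mice was 9315 CPM in CM (14 mice), 2339 in FB (12), 2711 in EC (13), 4585 in MP (16) and 3195 in T (11). In the test of CM against the mean of the other 4 types, with the mouse as a block, 30 of the 31 were called higher in CM, against 2897 of 13705 genes in both directions (21.1%). The median was 1.39 over the 31 genes and -0.10 over all genes. Me3 had the largest difference (2.88 ± 0.52 (SE), adjusted p = 2.81e-05), followed by Got1 (2.00 ± 0.27 (SE), adjusted p = 7.81e-08). By level, Mdh1 had a median of 1166 CPM in CM, against 175.2 in FB, 223.1 in EC, 501.3 in MP and 484.6 in T. The exception was Pdp1, which was low in every type (medians of 13.3 CPM in CM and 3.32 to 7.495 CPM in the others) and had 0.89 ± 0.56 (SE), adjusted p = 0.275. The smallest differences that passed were those of Sdhd (0.81 ± 0.23 (SE), adjusted p = 0.00784) and Sdhb (0.88 ± 0.16 (SE), adjusted p = 2.29e-05).

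**Figure D5:**
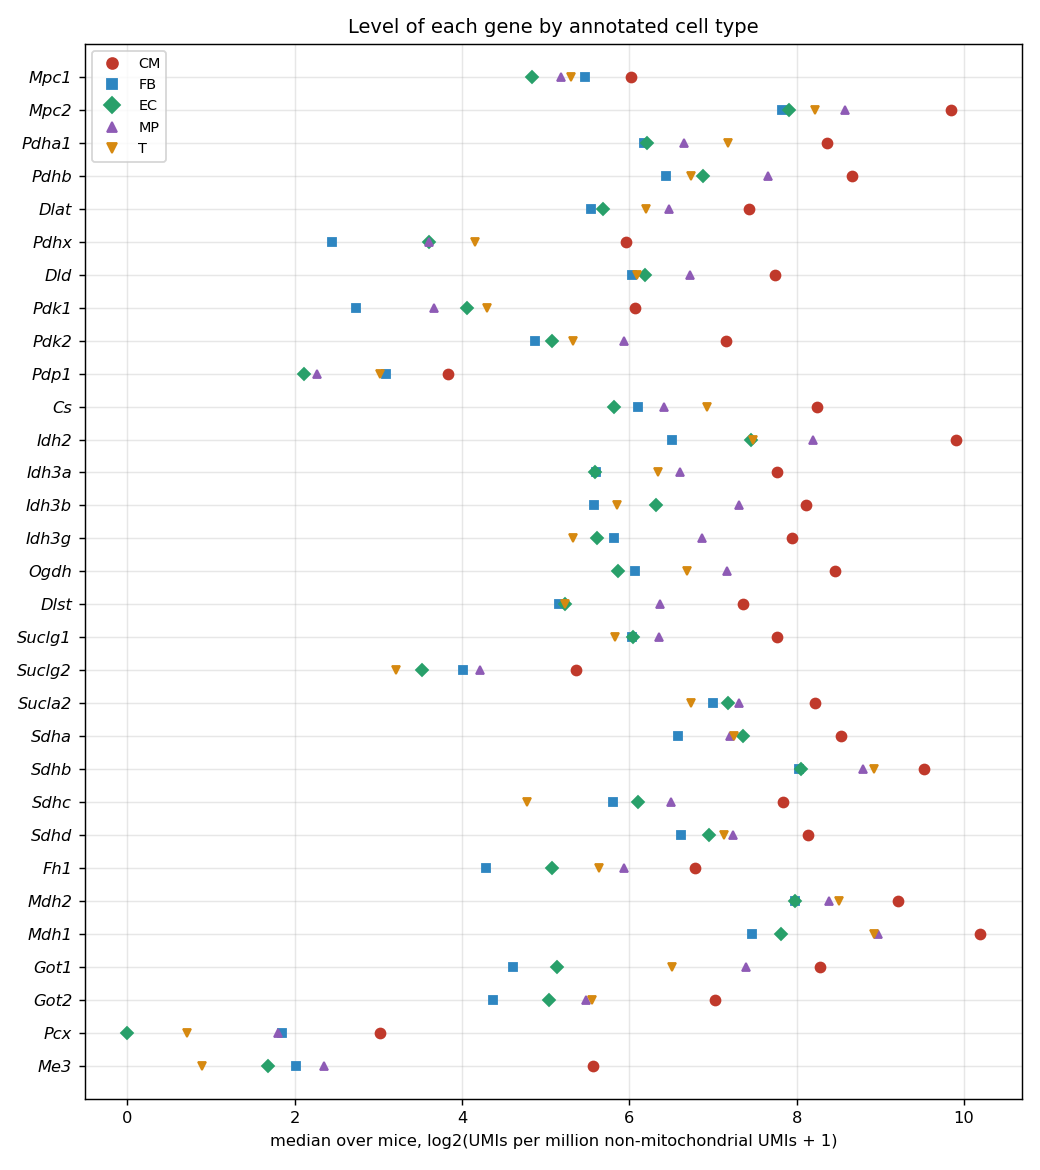
Median level over mice of each of the 31 genes in 5 annotated cell types, as log2 of the level (CPM) plus 1. CM lies rightmost for all 31 genes; for Mdh1 its median is 1166 CPM, against 501.3 CPM in MP.

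Part of the level in the other types went along with CM transcripts in the same sums. In MP the summed level was highest in 2w_2, 5w_4 and 5w_6 (8878, 7903 and 7987 CPM), where CM markers were at 31677, 29485 and 32515 CPM, and lowest in 5w_2 (1661 CPM), where they were at 339.6 CPM. Free RNA or doublets were not removed, and their part in these levels was not tested. Late against early mice, the 31 genes had a median log2 fold change of -0.16 in FB (0.09 over all genes), 0.17 in EC (-0.18, 30 tested), -0.96 in MP (-0.21) and -1.20 in T (-0.70, 30 tested). None was called in any of these types, against 0% of all genes. An unadjusted p under 0.05 was found for 3 of them in FB (1487 of all 15400 genes) and 0 in EC (1324 of 14401). It was found for 6 in MP (873 of 13210) and 7 in T (1429 of 11352). Single mice moved these medians, to -0.0005 without 0w_2 in FB, 0.01 without 8w_2 and 0.32 without 0w_1 in EC, and -1.87 without 11w_2 in T. In MP, the CM markers were at 2754, 8785 and 11872 CPM in the 8w mice and 3412 and 6763 CPM in the 11w mice, against 8254 and 13145 CPM in the 0w mice and 14793 and 31677 CPM in the 2w mice. In T they were at 3293 and 3047 CPM in 8w mice and 6427 and 10112 CPM in 11w mice, against 5942 and 13774 CPM in 0w mice and 17135 and 16372 CPM in 2w mice. Whether the late against early change in CM differed from that in the other types was tested directly: the median difference over the 31 genes was -0.59 (-0.06 over all genes), -0.32 without plate E (0.37 over all genes) and -0.27 with TMM factors (0.24 over all genes), and with all mice 0 of the 31 and 0% of all genes were called, with 0 of the 31 and 419 of all 13705 at an unadjusted p under 0.05. A drop of these genes particular to CM was therefore not shown.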

How the data were processed

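The authors deposited counts of unique molecular identifiers per gene and cell, whole numbers with no normalization, with a cell annotation giving mouse, type and subcluster. Per the labels' protocols, slices of ventricle were digested with protease and collagenase for myocytes and, for the remaining cells, with papain, and libraries were made with Nextera XT. STAR 2.5.2b, featureCounts, Subread 1.4.6-p1 and the builds mm10 and GRCh37 are named in the submitters' processing notes; what each was used for, which annotation was counted and whether strand was used is not given here. Genes that share reads with pseudogenes were not separated. Of the columns of per-sample values, 0 were left unused.

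Counts were summed per mouse and type (at least 10 cells), without the 34 mitochondrially encoded genes. Non-mitochondrial totals served as library sizes in edgeR 4.0.16 (R 4.3.3, filterByExpr, glmQLFit with robust dispersion, two-sided glmQLFTest), 1 fit per type over all stages, with Benjamini-Hochberg adjustment over all genes tested. A mouse is 1 library per type, and no separate repeat of a mouse is labelled. Nuclear copies were GENCODE vM21 genes that share at least 10% of their 25-base words with mitochondrial transcripts (17 genes, 10 of them in the table); they are highest in CM at 11w. Alternatives were TMM and RLE factors, DESeq2 1.42.0, limma 3.58.1 on means over cells with a pseudocount of 1, other filters, at least 20 cells, leaving out mice, and a replicate block. Doublets were not called and no cells were filtered. The fit was tested on simulated data. All 31 members are named; of the neighbour list, fixed by hand, the 6 with the smallest p in late against early CM were to be named, and 1 of them is not reported here. Members, lists and the setting without plate E were chosen with earlier results of these data known. Tables were made with Python 3.11.15, numpy 2.4.6, scipy 1.17.1 and pandas 2.3.3, and plots with matplotlib 3.10.9.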

Additional observations from a re-analysis of the deposited data

Results flagged for a closer look

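In the CM of 5w, 5w_1 stood apart from the other 4 mice in 5 of the 31 genes, as the highest or lowest mouse with a gap to the next that is large for a group of 5 (Dixon's criterion; chance marks about 1 in 20 groups, and 34 groups were examined). Its levels were 84.2 CPM for Mpc1 and 283 CPM for Fh1, above the other mice, and 15.1 CPM for Dlat, 38.8 CPM for Ogdh and 5.4 CPM for Got2, below them. The sum of 5w_1 rested on 54 cells, with CM markers at 9382 CPM, fibroblast markers at 5480 CPM and mural markers at 3938 CPM. The part of these in the 5 values was not tested.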

How the results depend on the processing

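Percentages in this paragraph are the share of all genes tested that was called, and counts without one are given without that share. For late against early CM, 0 of the 31 genes were called with all mice (0%), 3 with no filter on low counts and 4 with limma on means over cells. It was 25 without plate E (6.35%), 6 without plate E and the nuclear copies (0.617%) and 2 without plate E with TMM factors (0.578%). Leaving out 1 mouse gave 0 to 25, the highest in fits that also left out plate E; with plate E kept it gave 10 without 5w_1 and 0 otherwise. At 11w against 0w the count was 0 with all mice (0%) and 4 with limma. Leaving out 1 mouse gave 0 to 24, above 0 only in fits that also left out plate E. It was 22 without plate E (7.2%), 11 without plate E and the copies (1.58%) and 3 without plate E with TMM factors (0.591%). The median at 11w, -1.46, was -0.75 with TMM factors, -0.66 with RLE factors, -0.76 with mitochondrial genes kept and TMM factors, -0.66 by DESeq2 and -0.78 without plate E with TMM factors; these factors are 0.687 and 0.756 in the 11w mice. At 5w against 0w the count was 0 with all mice (0.00661%). Leaving out 1 mouse gave 0 to 3, above 0 only in fits that also left out plate E. The count at 5w was 1 without plate E, with or without TMM factors (0.48% and 0.474%), and 2 without plate E and the copies (0.617%). For 8w and 11w against 5w it was 0 with all mice (0.033%), 3 without plate E and 1 without plate E with TMM factors or without the copies. Leaving out 1 mouse gave 0 to 8 there, above 0 only in fits that also left out plate E. DESeq2 called 1 of the 31 in FB and 1 in T, where the main test called 0 (0%). Leaving out 1 mouse, the medians ran from -0.98 to -0.28 at 8w against 0w, -0.22 to -0.0005 in FB, 0.01 to 0.32 in EC, -1.87 to -0.99 in T and -0.65 to -0.32 for the difference between CM and the other types. The range at 8w includes fits that also left out plate E, and the -0.28 is from such a fit. For CM against other types 27 to 30 genes were called leaving out 1 mouse.

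With the replicate number as a block, the mice 5w_4 to 5w_7 have numbers no other stage has, so the 5w contrasts rest on 5w_1 by construction. The count, given without the share of all genes, was then 1 at 5w against 0w (median -2.36) and 3 for 8w and 11w against 5w (median 0.97). In the latter contrast Dlst (4.09) and Dld (5.51) reversed, on 4 and 3 UMIs in 5w_1. Same-numbered mice correlated by -0.0159 to 0.209 in their deviations from the stage means, against -0.2 to 0.18 for other pairs. The value of 0.209 was that of 5w_1 with 8w_1, both on plate E. In stages of 2 mice the deviations mirror each other by construction, so these values cannot decide whether mice were paired.

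The settings without the nuclear copies, of single annotation groups of cells, and those joining plate E with another choice were chosen after seeing the data. Stages hold 2 to 5 CM mice, sums range from 54 to 636 cells, and several genes were at few UMIs in some mice (Pcx, Me3 and Pdp1 in late mice, and Pdhx, Dld, Dlst, Pdk1 and Got2 at 2 to 5 in 5w_1), which limits what these genes can show.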

Other observations

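Within mice whose CM came from more than 1 plate, the summed level of the 31 genes differed between plates. It was 14564 CPM on plate C (529 cells) and 7137 CPM on plate D (107 cells) in 2w_1, and 16303 CPM on plate C (462 cells) and 7378 CPM on plate D (67 cells) in 2w_2. In 0w_1 it was 12411 CPM on plate A (537 cells) and 8242 CPM on plate B (14 cells), and in 8w_3 8221 CPM on plate J (416 cells) and 1561 CPM on plate I (25 cells). The annotation also divides cells into API and PI, abbreviations that are not explained. In CM of 11w the sum was 5208 and 5930 CPM in API cells and 4398 and 4652 CPM in PI cells, and at 0w it was 10579.9 and 11386 CPM in API cells and 13497 and 14635.5 CPM in PI cells. The 181 GN cells, pooled over 16 mice, had a summed level of 4287 CPM.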
